A study of Bos taurus with 14 samples.

Results

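The miRNAs of the imprinted DLK1-DIO3 region were followed in bovine plasma and blood leucocytes. They were taken as every bovine (bta) name that carries 1 of 41 miRNA numbers known from this region and lies on chromosome 21. The rule found 47 names, called members here, for 36 of the 41 numbers, among 932 bovine and human names in the library files. No member was found for miR-541, miR-544, miR-545, miR-889 and miR-1193, and bta-miR-545-3p and bta-miR-545-5p were left out because they lie on chromosome X. The rule used names and positions and no measured value.

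In mammals this region holds one of the largest groups of imprinted miRNAs. The protein-coding genes DLK1, RTL1 and DIO3 are expressed from the chromosome inherited from the father, whereas the long non-coding RNAs MEG3, MEG8 and MEG9 and the miRNAs come from the chromosome inherited from the mother. The miRNAs are cut from long transcripts and are therefore often made together. They are known for high levels in placenta, embryo, brain and developing muscle, and in sheep a change in this region underlies the heavily muscled callipyge phenotype.

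The same cows were sampled on 2 diets. They were rumen-cannulated, non-lactating Holstein cows, fed forage alone (FD, 0% concentrate) and then a high-grain diet (HG, 65% concentrate) given to induce subacute ruminal acidosis, with HG blood taken in week 1. Jugular EDTA blood of 4 cows gave plasma, spun again to remove cells, for 4 FD and 4 HG libraries, and the buffy coat gave leucocyte libraries of cows 1, 3 and 4, 3 on each diet. All cows received FD first, so diet and time cannot be told apart. The question put to the diets was whether circulating and leucocyte miRNAs change with the acidosis-inducing diet.

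The authors deposited, per name, how many reads and how many distinct sequences matched it, and also an estimated count that splits reads with several matches between the names concerned. The estimated counts summed to 292241 to 2280797 per library in FD plasma, 762918 to 3178990 in HG plasma and 18324737 to 56770875 in leucocytes. Levels are given as CPM (counts per 1e6), the estimated count as a share of the library's sum of estimated counts. A count of 0 allows up to 3 counts, which is 0.944 to 10.3 CPM in plasma and 0.0528 to 0.164 CPM in leucocytes, and this limit covers counting error only. The smallest read count above 0 in the files is 2, and a member was taken as detected at this count. The leucocyte libraries held the leucocyte miRNA list (8 names such as miR-142-5p and miR-223) at 24332 to 37082 CPM, but also the erythrocyte list (8 names such as miR-451) at 305077 to 477863 CPM, against 71084 to 169811 CPM in plasma.

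On the UMD3.1 build of the library files, all 47 members lay on the plus strand of chromosome 21 between 67416661 and 67604752, a span of 188 kb. Gaps of more than 10 kb divided them into 3 stretches. The first stretch held 7 members from bta-miR-493 (chr21:67416661-67416682) to bta-miR-136 (chr21:67431437-67431459), among them bta-miR-127, bta-miR-136, bta-miR-431, bta-miR-432 and bta-miR-433, which in mammals lie opposite to the coding strand of RTL1 and match its transcript. The second stretch was bta-miR-370 alone (chr21:67457284-67457305). The third held 39 members from bta-miR-379 (chr21:67561884-67561904) to bta-miR-656 (chr21:67604732-67604752), most of which are related in their hairpins and are known as the miR-154 family. The same gene order, with MEG3 before the first stretch and MEG8 before bta-miR-370, is given by RefSeq for a later bovine assembly (ARS-UCD2.0). A further 3 bovine names between the first and the last member, bta-miR-1197, bta-miR-3956 and bta-miR-668-3p, had 0 reads in every plasma library.

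The members were a small share of the miRNA counts in both sample types and a larger one in plasma. Summed over the 47 members, plasma libraries had 459 ± 273 CPM (SD, n = 8 libraries, 0.0459% of the counts) and leucocyte libraries 70.2 ± 6.90 CPM (SD, n = 6, 0.00702%). The lowest plasma library, with 152 CPM, lay above the highest leucocyte library, with 83.5 CPM. These are shares of a library and not amounts per volume of blood, and fewer cells of a type and less RNA per cell cannot be told apart in such samples. With the 8 erythrocyte names and their 7 human counterparts taken out of the total (52.5% to 61.8% of the counts in leucocytes and 12.2% to 30.3% in plasma), the leucocyte sums were 167 CPM on FD and 167 CPM on HG, and the plasma sums 451 and 797 CPM.

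Levels of different members were compared as undivided RPM (reads per 1e6 reads summed over all names), because 15 members share all their reads with a human name and the estimated count splits these between both. Mature miRNAs are of similar length, so no length scaling was applied. On this scale plasma was led by bta-miR-487b, with a mean of 57.7 RPM over the 8 libraries, followed by bta-miR-379 with 47.95 RPM and bta-miR-369-3p with 34.9 RPM. Leucocytes were led by bta-miR-494, bta-miR-487b and bta-miR-379, and bta-miR-411a and bta-miR-369-3p were also among their leading members. Across the 47 members the order was similar in both sample types (Spearman's rho 0.772, a description across members that share libraries and hairpin families).

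Plasma values of the leading members ranged more widely between libraries than leucocyte values. For bta-miR-379, the first member of the third stretch, plasma libraries ran from 22.8 to 198 CPM (median 98.3, n = 8) and leucocyte libraries from 7.65 to 15.1 CPM (median 10.4, n = 6). For bta-miR-487b the plasma range was 20.3 to 136 CPM (median 39.4) and the leucocyte range 4.66 to 9.69 CPM (median 6.30). For bta-miR-369-3p it was 11.5 to 61.0 CPM (median 33.8) in plasma and 2.77 to 3.72 CPM (median 3.15) in leucocytes. In none of these leading members did the 2 sample types overlap.

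**Figure D1:**
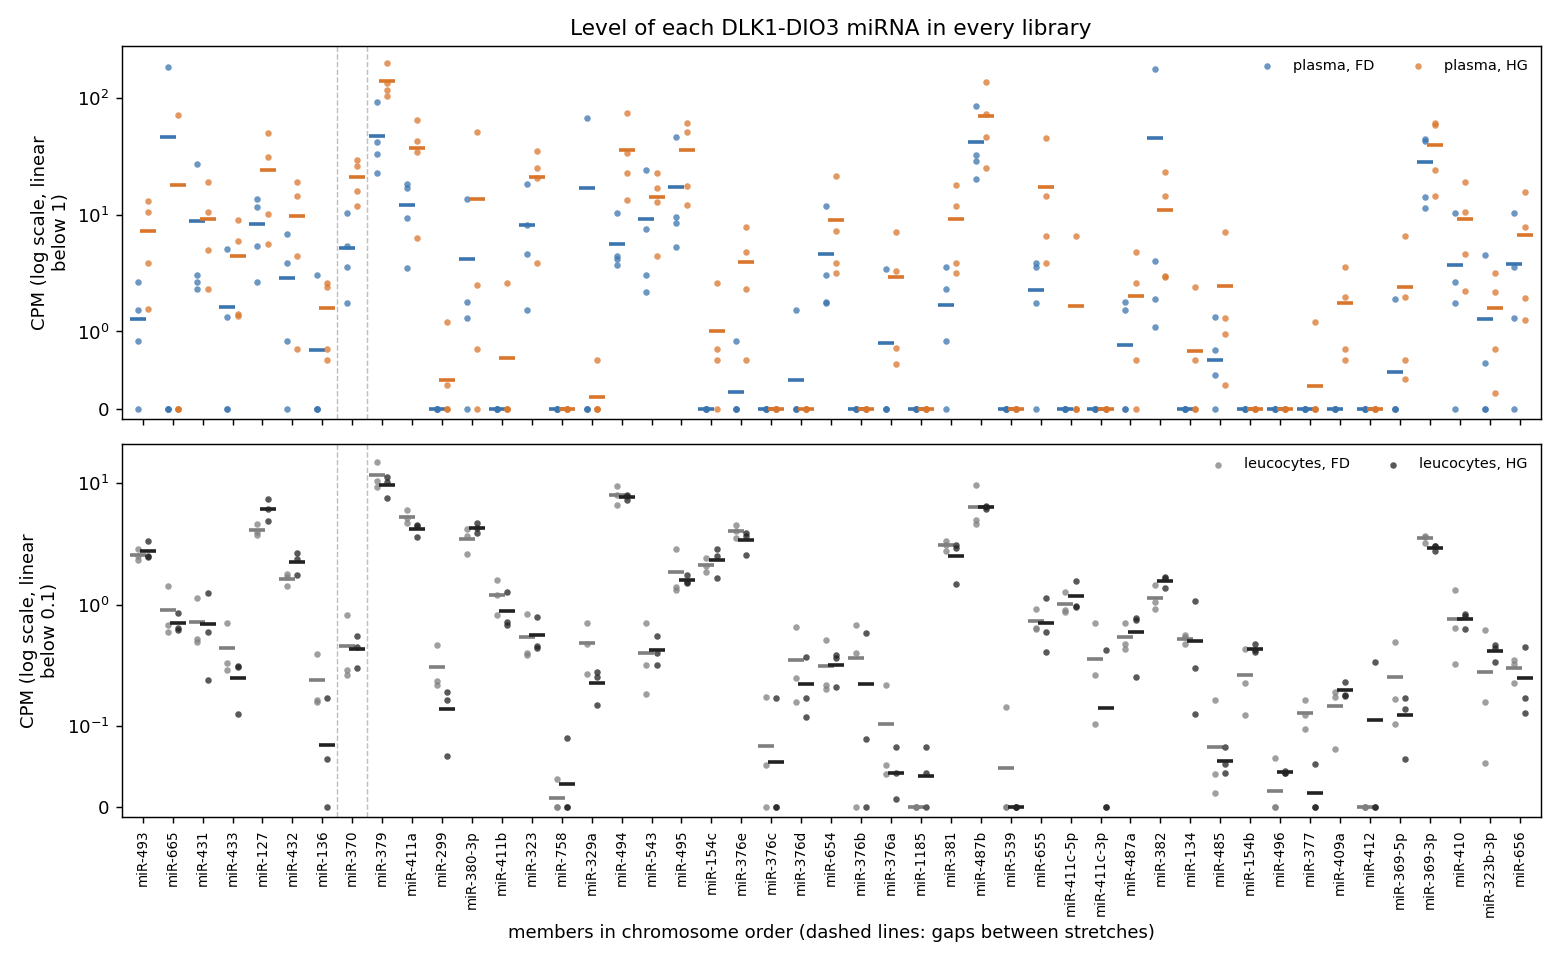
Level of each member in chromosome order, in CPM on an axis that is logarithmic above 1 CPM (plasma, upper panel) or 0.1 CPM (leucocytes, lower panel) and linear below it. Points are libraries (4 per diet in plasma, 3 per diet in leucocytes), bars are group means, and points on the line at 0 have no reads. The leucocyte points of a member lie close together, and the plasma points spread widely, as for bta-miR-665 and bta-miR-382, where 1 library sets the FD mean.

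Of the 47 members, 38 had reads in at least 1 plasma library (of 642 names with reads in plasma) and all 47 in at least 1 leucocyte library (of 916 names). The 9 members without plasma reads were bta-miR-154b, bta-miR-376b, bta-miR-376c, bta-miR-411c-3p, bta-miR-412, bta-miR-496, bta-miR-539, bta-miR-758 and bta-miR-1185. They had between 6 and 93 reads in all 6 leucocyte libraries together. Each plasma library was smaller than each leucocyte library, so absence from plasma was not detectable at this depth for most of them.

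More members were detected in plasma on HG than on FD in every cow. The FD libraries of cows 1 to 4 held 20, 24, 22 and 23 members, and the HG libraries of the same cows held 33, 32, 32 and 29. The means were 22.2 ± 1.71 and 31.5 ± 1.73 (SD, n = 4), and the paired difference was 9.25 ± 2.99 members (SD, n = 4 cows), larger than the spread between cows. With at least 5 RPM in place of 2 reads the difference was 6.25 ± 12.5 members, smaller than its spread. The number of all detected names moved the same way, from 440 ± 20.3 to 519 ± 14.3 per library (higher in 4 of 4 cows). The members were 4.88% to 5.32% of the detected names in the FD libraries and 5.57% to 6.35% in the HG libraries. Counts in the library were higher on HG in cows 1 and 4 and lower in cows 2 and 3, and the part of depth in detection was not tested.

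In every plasma library 13 members were detected, and these same 13 were all that were found in all 4 FD libraries, whereas 27 were found in all 4 HG libraries. Thus 14 of the 38 members with plasma reads (36.8%) were in all HG but not in all FD libraries, against 76 of the 642 names with plasma reads (11.8%), and 0 members were in all FD but not in all HG libraries. Of the 642 names 362 were in every FD library and could not meet this rule, against 13 of the 38 members. The shares are thus not matched for level. The 14 were bta-miR-493, bta-miR-433, bta-miR-432 and bta-miR-136 of the first stretch and bta-miR-376e, bta-miR-376a, bta-miR-381, bta-miR-655, bta-miR-485, bta-miR-409a, bta-miR-369-5p, bta-miR-410, bta-miR-323b-3p and bta-miR-656 of the third. They were not absent on FD. Of them, 7 were found in 3 FD libraries, 2 in 2, 4 in 1, and bta-miR-409a alone in 0 FD libraries. Summed over 4 libraries they had 0 to 13 reads on FD (median 6.5) and 8 to 170 on HG (median 26.5), so detection turned on few reads.

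In 3 of 4 cows the summed plasma level was higher on HG, and the mean difference was smaller than the spread between cows. The sums of cows 1 to 4 were 632, 345, 152 and 203 CPM on FD and 313, 694, 946 and 391 CPM on HG. The HG sum was thus 0.496 times the FD sum in cow 1 and 2.01, 6.23 and 1.93 times in cows 2, 3 and 4. The means were 333 ± 215 CPM and 586 ± 291 CPM (SD, n = 4), with a paired difference of 253 ± 459 CPM (SD, n = 4 cows). The 3 plasma libraries with the highest sums, HG of cow 3, HG of cow 2 and FD of cow 1, were also the 3 with the fewest counts (836370, 762918 and 292241). The part of depth in the summed level was not tested.

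**Figure D2:**
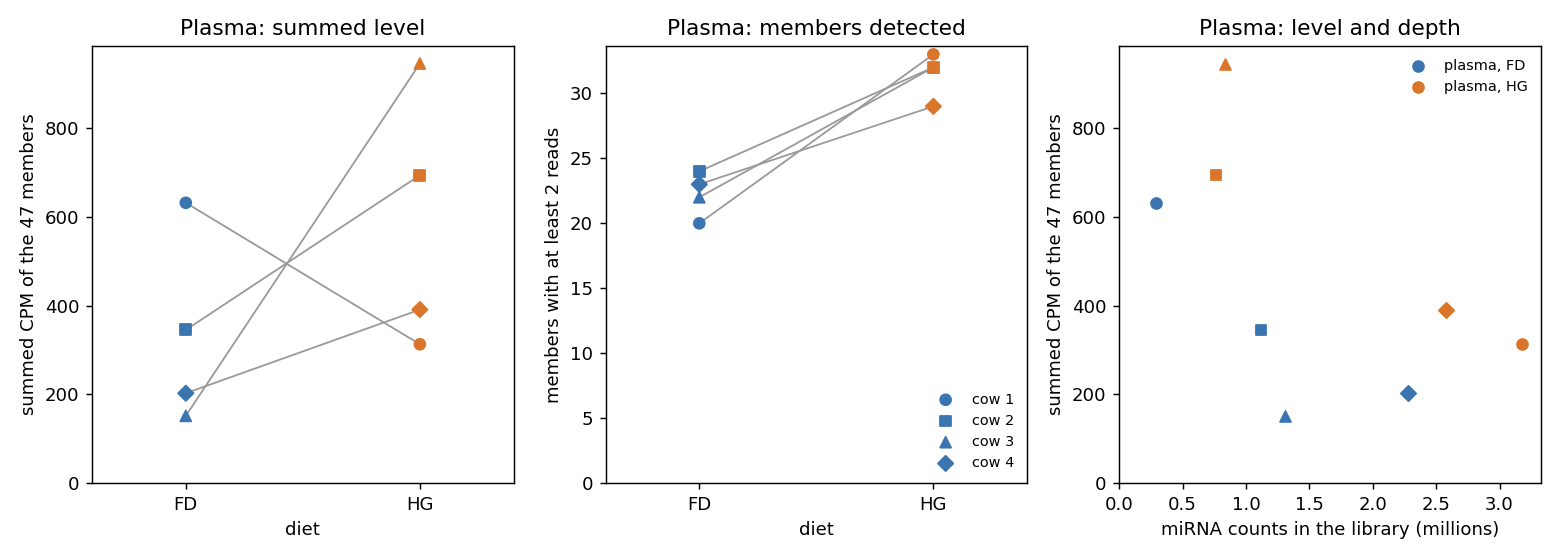
Plasma libraries by diet, with lines joining the FD and HG library of a cow: the summed CPM of the 47 members (left), the number of members with at least 2 reads (middle), and the summed CPM against the estimated counts in the library (right, in units of 1e6). Detection rises in all 4 cows, the sum falls in cow 1, and the 3 smallest libraries have the 3 highest sums.

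The member that led the FD sum differed between cows. In cow 2 bta-miR-665 made up 53.5% of the sum, in cow 1 bta-miR-382 made up 27.9%, in cow 3 bta-miR-379 made up 27.7%, and in cow 4 bta-miR-329a made up 33.5%. In all 4 HG libraries bta-miR-379 was the leading member, with 19.5% to 37.4% of the sum. Without the members that have a plasma library apart from the other 3 of its diet, a choice made after the values were seen, the sums were 179 ± 106 CPM on FD and 439 ± 190 CPM on HG (SD, n = 4). All 17 values that stood apart were high ones, and most were on FD, with 8 in FD cow 1. The choice itself thus favours a lower FD sum.

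The plasma test between diets covered 30 members with at least 10 counts in total. Of the other 17, 9 had no plasma reads and 8 had too few. By edgeR's quasi-likelihood test with cow as a block and Benjamini-Hochberg adjustment over all 536 names tested, 0 of 30 members had an adjusted p under 0.05, and 0 of all names did (0%). At an unadjusted p under 0.05 there were 0 members and 46 names. DESeq2 called 10 names and 0 members. The smallest adjusted p among the members was 0.577 and among all names 0.503.

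Although none was called, the fitted changes of the members leaned towards HG. The log2 fold change was above 0 in 28 of 30 members (93.3%), with a median of 1.04, against 323 of 536 names (60.3%) and a median of 0.26. A total of 10 counts can be reached through the HG libraries alone, as for bta-miR-376e with 2 reads on FD and 18 on HG. For members let in this way a value above 0 was set by the filter, so these shares are no test. Rare names leaned the same way in general. Among names with a mean plasma level under 10 CPM, 117 of 129 (90.7%) were above 0 with a median of 1.99, and among the 18 tested members of this level 17 (94.4%) were, with a median of 1.18. Among names of 10 to 50 CPM the shares were 70.5% of 132 names (median 0.71) and 9 of 10 members (median 0.92). Scaled to library size alone, the medians were 1.5 over the members and 0.64 over all names. Without cow 3 the members' share above 0 was 70.8% of 24 with a median of 0.50, against 60.4% of all names with a median of 0.19.

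By stretch, the median plasma log2 fold change was 1.19 over the 7 members of the first, 1.75 for bta-miR-370 alone and 0.96 over the 22 tested members of the third. In 8 of 30 members the HG value exceeded the FD value in each of the 4 cows, against 14% of all names tested, and in 0 of 30 it was lower in each, against 1.12%. The same filter on total counts acts on these numbers. In 4 of 30 all HG libraries lay above all FD libraries, against 5.22% of all names. These 4 were bta-miR-370, bta-miR-379, bta-miR-494 and bta-miR-655.

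The abundant bta-miR-379 had 92.4, 33.0, 42.0 and 22.8 CPM on FD and 117, 135, 198 and 104 CPM on HG in cows 1 to 4. Every HG library was above every FD library. The means were 47.6 ± 30.9 and 139 ± 41.8 CPM (SD, n = 4), with a log2 fold change of 1.30 (SE 0.79, edgeR adjusted p = 0.705).

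Of the other members, bta-miR-494 of the third stretch had the smallest p. It had 10.3, 4.47, 4.204 and 3.73 CPM on FD and 13.4, 74.1, 22.7 and 34.1 CPM on HG, so the groups again did not overlap. Its log2 fold change was 2.10 (SE 1.08, edgeR adjusted p = 0.577). The FD values rest on 6, 10, 11 and 17 reads.

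The lone bta-miR-370 had 10.3, 3.57, 5.35 and 1.75 CPM on FD and 16.04, 11.8, 26.3 and 29.5 CPM on HG. Its groups did not overlap either, although cow 1 on FD, with 3 reads, was close to the lowest HG library. The log2 fold change was 1.75 (SE 1.07, edgeR adjusted p = 0.705).

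Several members near the detection limit had larger fitted changes. For bta-miR-376e the FD values were 0, 0, 0 and 0.877 CPM and the HG values 0.629, 7.86, 4.78 and 2.33 CPM, with a log2 fold change of 2.94 (SE 1.54, edgeR adjusted p = 0.581). Only 1 FD library and all HG libraries had reads, and the groups overlapped. For bta-miR-493, which opens the region, they were 0, 2.68, 1.53 and 0.877 CPM on FD and 1.57, 10.5, 13.2 and 3.88 CPM on HG (log2 fold change 1.81, SE 1.10, edgeR adjusted p = 0.705). For bta-miR-381 they were 0, 3.57, 2.29 and 0.877 CPM on FD and 3.15, 11.8, 17.9 and 3.88 CPM on HG (log2 fold change 1.80, SE 1.10, edgeR adjusted p = 0.705). Both were higher on HG in 4 of 4 cows with overlapping groups.

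The pair of members with negative plasma fold changes rested on single FD libraries. bta-miR-329a had 68.0 CPM in the FD library of cow 4, 0.629 CPM in the HG library of cow 1 and 0 in all others, and its log2 fold change of -4.08 had an SE of 3.50 (edgeR adjusted p = 0.947). bta-miR-665 had 185 CPM in the FD library of cow 2, 71.7 CPM in the HG library of cow 3 and 0 in all others. Its log2 fold change was -0.27 (SE 4.03, edgeR adjusted p = 0.981) and turned to 7.42 without cow 2.

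Other abundant members overlapped between the diets. bta-miR-487b had 85.5, 28.6, 20.3 and 32.2 CPM on FD and 25.0, 72.7, 136 and 46.5 CPM on HG (log2 fold change 0.32, SE 1.01). bta-miR-495 had 46.2, 8.48, 9.56 and 5.26 CPM on FD and 17.8, 51.1, 61.6 and 12.01 CPM on HG (0.88, SE 1.08). bta-miR-369-3p had 44.5, 14.3, 11.5 and 43.2 CPM on FD and 24.4, 59.0, 61.0 and 14.3 CPM on HG (0.15, SE 1.16). In bta-miR-487b and bta-miR-495 the value was higher on HG in cows 2, 3 and 4 and lower in cow 1.

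The same pattern by cow was seen in bta-miR-127, which is known to match the RTL1 transcript. It had 13.7, 11.6, 5.35 and 2.63 CPM on FD and 5.66, 31.5, 50.2 and 10.1 CPM on HG, higher in 3 of 4 cows (log2 fold change 0.96, SE 1.08, edgeR adjusted p = 0.947). Its neighbour bta-miR-432 had 6.84, 0, 3.82 and 0.877 CPM on FD and 4.40, 14.4, 19.1 and 0.775 CPM on HG, higher in 2 of 4 cows. bta-miR-411a had 17.1, 9.38, 18.3 and 3.51 CPM on FD and 6.29, 34.7, 43.04 and 64.5 CPM on HG, higher in 3 of 4 cows. In each of these members cow 1 had the lower value on HG, and its FD library is the smallest.

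**Figure D3:**
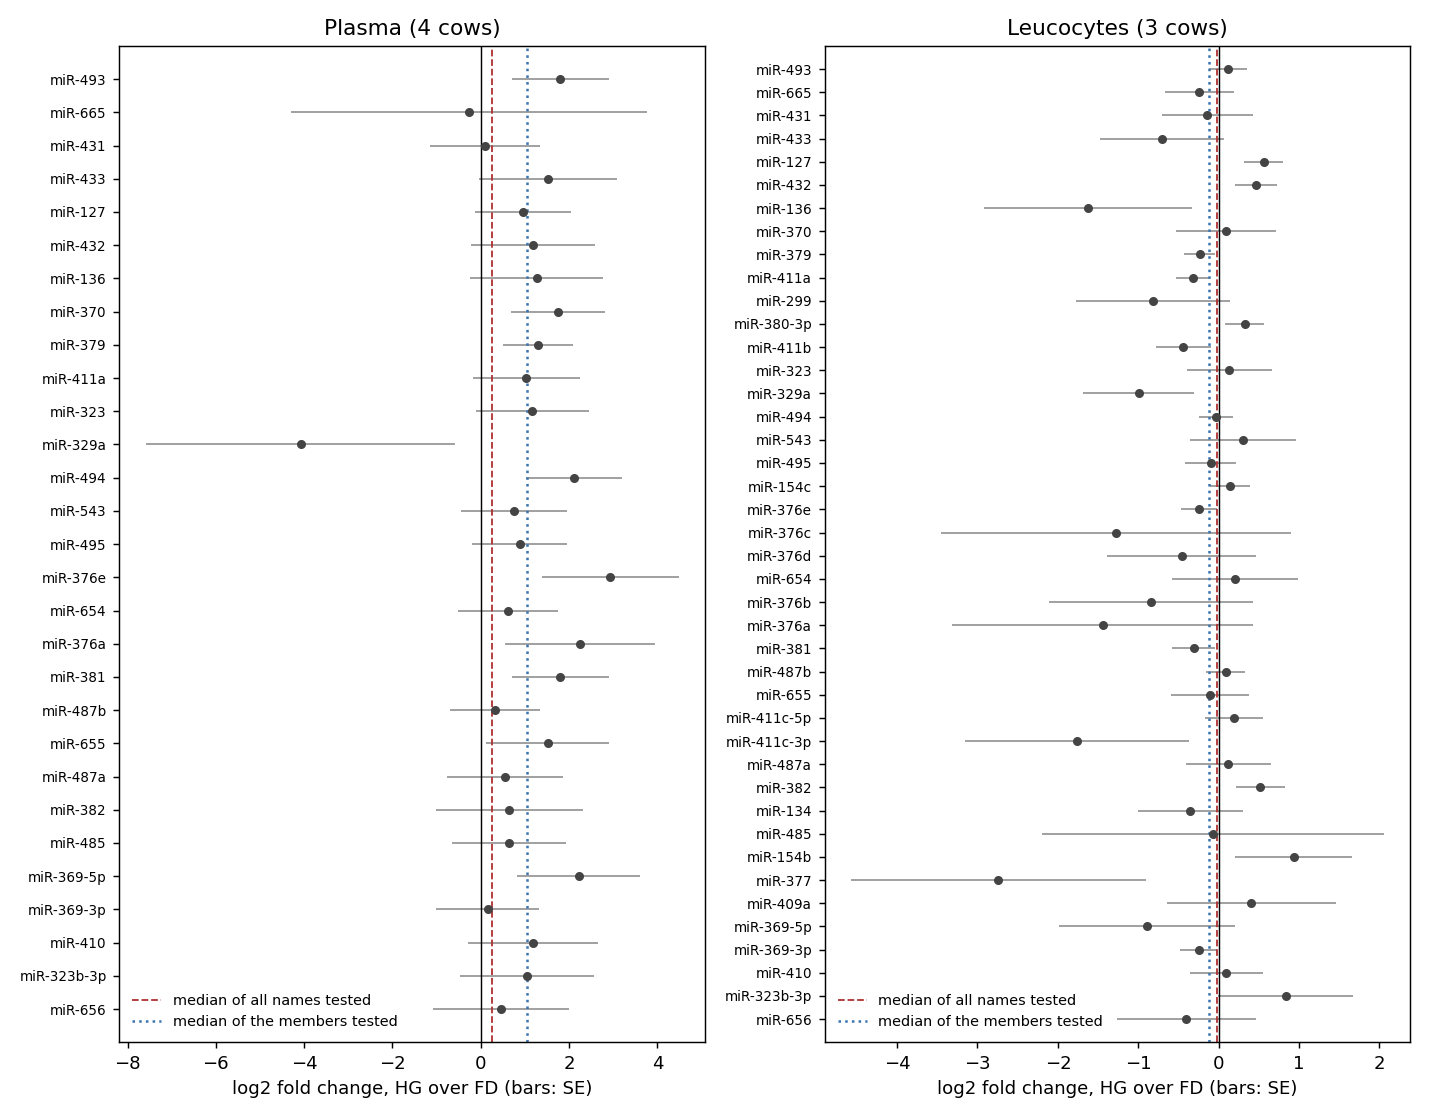
Log2 fold change of HG over FD with its SE for each tested member, in chromosome order, in plasma (left, n = 4 cows) and leucocytes (right, n = 3 cows). The dashed line is the median of all names tested (0.26 and -0.02) and the dotted line the median of the members (1.04 and -0.12). bta-miR-380-3p, whose plasma SE was 24.3, is not drawn in plasma, and no member had an adjusted p under 0.05 on either side.

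In leucocytes the members were steady between the diets. The sums of cows 1, 3 and 4 were 66.9, 64.1 and 83.5 CPM on FD and 68.2, 70.7 and 67.5 CPM on HG, with means of 71.5 ± 10.5 and 68.8 ± 1.69 CPM (SD, n = 3) and a paired difference of -2.70 ± 11.8 CPM. The sums were higher on HG in 2 of 3 cows. The FD libraries held 44, 43 and 40 members and the HG libraries 44, 39 and 42.

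Of the 42 members tested in leucocytes, 0 had an edgeR adjusted p under 0.05, against 14 of 779 names (1.8%; 0.385% higher and 1.41% lower on HG), and DESeq2 also called 0 members. At an unadjusted p under 0.05 there were 1 member and 116 of the 779 names. The median log2 fold change was -0.12 over the members and -0.02 over all names, with 17 members above 0 and 25 below. In every cow 5 members were higher and 9 were lower on HG, against 17.6% and 19.4% of all names. In 4 members all HG libraries lay below all FD libraries, against 9.5% of all names, and these were bta-miR-299, bta-miR-369-3p, bta-miR-377 and bta-miR-411a.

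The member with the smallest p was bta-miR-127. It had 3.96, 4.67 and 3.77 CPM on FD and 6.11, 4.90 and 7.49 CPM on HG, and every HG library was above every FD library (39 of the 779 names, 5.01%, did this). Its log2 fold change was 0.56 (SE 0.24, unadjusted p = 0.0411, edgeR adjusted p = 0.305). bta-miR-432, which lies next to it, had 1.43, 1.68 and 1.80 CPM on FD and 1.76, 2.66 and 2.38 CPM on HG, higher in 3 of 3 cows with overlapping groups (0.47, SE 0.26, edgeR adjusted p = 0.462). The first stretch as a whole had 10.01, 10.5 and 11.5 CPM on FD and 13.6, 11.3 and 13.95 CPM on HG, higher in 3 of 3 cows by 2.28 ± 1.41 CPM (SD), although 4 of its 7 members had a fold change below 0.

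In the third stretch some members were higher and others lower in every cow. bta-miR-382 had 1.06, 0.924 and 1.45 CPM on FD and 1.37, 1.66 and 1.70 CPM on HG (log2 fold change 0.52, SE 0.31, edgeR adjusted p = 0.482). bta-miR-380-3p had 3.70, 2.62 and 4.20 CPM on FD and 3.88, 4.72 and 4.25 CPM on HG (0.33, SE 0.24, edgeR adjusted p = 0.584). Both were higher on HG in 3 of 3 cows. bta-miR-154b, at 0.123, 0.228 and 0.437 CPM on FD and 0.407, 0.478 and 0.425 CPM on HG, was higher in 2 of 3 cows (0.94, SE 0.73, edgeR adjusted p = 0.594).

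Lower values on HG were found for bta-miR-411a, with 5.18, 4.70 and 6.06 CPM on FD and 3.62, 4.55 and 4.49 CPM on HG (log2 fold change -0.32, SE 0.22, edgeR adjusted p = 0.545). The related bta-miR-411b had 1.60, 1.20 and 0.819 CPM on FD and 1.29, 0.716 and 0.681 CPM on HG (-0.44, SE 0.34, edgeR adjusted p = 0.594). Both were lower in 3 of 3 cows, and only for bta-miR-411a did the diets not overlap. bta-miR-329a had 0.476, 0.270 and 0.709 CPM on FD and 0.278, 0.149 and 0.255 CPM on HG (-0.996, SE 0.69, edgeR adjusted p = 0.555). The rarest of these were bta-miR-377, with 0.0969, 0.125 and 0.164 CPM on FD and 0.0536, 0 and 0 CPM on HG, followed by bta-miR-411c-3p, with 0.264, 0.104 and 0.709 CPM on FD and 0.428, 0 and 0 CPM on HG. Each was at 0 in the HG libraries of cows 3 and 4.

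Whether the diet difference itself was unlike in plasma and leucocytes was tested in cows 1, 3 and 4 with the product of sample type and diet. By edgeR 0 of 42 members and 0 of 794 names (0%) had an adjusted p under 0.05, with 0 members and 24 names at an unadjusted p under 0.05. DESeq2 called 7 names and 0 members. The median difference was 1.22 over the members and 0.36 over all names, on the log2 scale. Names can pass the filter on total counts through the leucocyte libraries alone. Members without plasma reads in these cows, such as bta-miR-154b (SE 4622), gave no usable difference. With plasma reads on a single diet the sign was set, above 0 for bta-miR-409a (HG alone) and below 0 for bta-miR-376d (FD alone). These medians are thus no test.

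Plasma and leucocytes were compared in the 12 libraries of cows 1, 3 and 4, with the blood draw as a block. Each cow entered with its FD and its HG draw, so the draws are not separate animals. Of 42 members tested 12 had an edgeR adjusted p under 0.05, which is a smaller share than that of all names, 436 of 794 (54.9%). Among the members 4 were higher in plasma, against 14.4% of all names, and 8 were lower, against 40.6%. A total of 10 counts can be reached through the larger leucocyte libraries alone. For names let in this way a value below 0 was set by the filter, so these shares and the medians that follow are no test. The median log2 difference of plasma over leucocytes was -0.43 over the members and -2.16 over all names. Because the scaling moves all names together, the members are best read against that median. Scaled to library size alone, the median of all names was -0.67 and that of the members 1.01. By this scaling 12 members were called higher and 2 lower, against 197 and 134 of the 794 names. DESeq2 called 11 members higher and 5 lower, against 151 and 257 of the names. RNA of plasma and leucocytes was extracted with different kits, so sample type and kit cannot be told apart.

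The members called higher in plasma came from 2 of the 3 stretches. bta-miR-370 ran from 1.75 to 29.5 CPM (median 11.03) over the 8 plasma libraries and from 0.264 to 0.819 CPM (median 0.374) over the 6 leucocyte libraries. It was higher in plasma in 6 of 6 blood draws with no overlap, and the log2 difference was 3.20 (SE 0.99, edgeR adjusted p = 0.0137). bta-miR-543 had plasma values of 2.19 to 23.95 CPM (median 10.3) and leucocyte values of 0.185 to 0.709 CPM (median 0.363), with a log2 difference of 2.79 (SE 0.98, edgeR adjusted p = 0.0244). It too was higher in 6 of 6 draws.

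bta-miR-654 was at 1.75 to 21.5 CPM (median 3.51) in plasma and 0.203 to 0.518 CPM (median 0.291) in leucocytes (2.56, SE 0.91, edgeR adjusted p = 0.0258). bta-miR-323 was at 1.53 to 34.9 CPM (median 13.2) and 0.384 to 0.846 CPM (median 0.452), respectively (2.54, SE 0.98, edgeR adjusted p = 0.0369). Both were higher in plasma in 6 of 6 draws. bta-miR-485, at 0 to 7.17 CPM (median 0.867) in plasma and 0.0176 to 0.164 CPM (median 0.0480) in leucocytes, missed the threshold (2.37, SE 0.996, edgeR adjusted p = 0.052). Without cow 1, 0 members were called higher in plasma and 4 lower, against 76 and 232 of 746 names.

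Over the 12 libraries, 9 of the 42 members had all plasma libraries above all leucocyte libraries, against 18.1% of all names, and 4 had them all below, against 18.5%. The same filter on total counts acts on the shares below. The 9 were bta-miR-431, bta-miR-370, bta-miR-379, bta-miR-323, bta-miR-543, bta-miR-495, bta-miR-654, bta-miR-487b and bta-miR-369-3p. For the last of these the log2 difference was 1.57 (SE 0.79, edgeR adjusted p = 0.0967), for bta-miR-379 it was 1.37 (SE 0.66, edgeR adjusted p = 0.0852), and for bta-miR-487b 1.33 (SE 0.69, edgeR adjusted p = 0.108).

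The members called lower in plasma all came from the third stretch and carry the numbers miR-411, miR-154, miR-376 and miR-380. bta-miR-376e was at 0 to 7.86 CPM (median 0.753) in plasma and 2.59 to 4.58 CPM (median 3.82) in leucocytes, lower in 5 of 6 draws, with a log2 difference of -3.24 (SE 1.10, edgeR adjusted p = 0.0215). bta-miR-380-3p was at 0 to 51.1 CPM (median 1.55) in plasma and 2.62 to 4.72 CPM (median 4.04) in leucocytes (-3.08, SE 1.13, edgeR adjusted p = 0.0295). bta-miR-154c was at 0 to 2.62 CPM (median 0) in plasma, where 3 libraries had reads, and at 1.66 to 2.87 CPM (median 2.26) in leucocytes (-4.56, SE 1.20, edgeR adjusted p = 0.00543). These plasma ranges and medians are over 8 libraries, and the highest value of each of the 3 was in HG cow 2, outside the test. In the libraries tested bta-miR-380-3p reached 13.7 CPM, in FD cow 1.

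The other 5 had 0 reads in all 6 plasma libraries tested, so the direction of their calls was set by the filter. Taken over the pooled libraries, with 3 counts as the limit (0.286 CPM), bta-miR-411b was at least 4.06-fold lower in plasma and bta-miR-411c-5p at least 3.89-fold. By the same limit bta-miR-376b was at least 1.32-fold lower and bta-miR-154b at least 1.09-fold lower, and for bta-miR-411c-3p the leucocyte level of 0.234 CPM lay under the limit, so no fold is given. The HG plasma library of cow 2, which has no leucocyte partner here, held 2 reads of bta-miR-411b and 5 of bta-miR-411c-5p.

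Names known from other sources were measured beside these comparisons. In plasma against leucocytes the vascular and mesenchymal list had 6 of 8 names called higher and 2 lower (median log2 difference 3.72), and the muscle list 4 of 7 higher and 0 lower (3.23). The erythrocyte list had 1 of 8 higher and 7 lower (-2.93) and the leucocyte list 0 higher and 7 of 8 lower (-1.72). Between the diets 0 names of these lists and of the liver list were called in plasma. The summed vascular list ran from 34258 to 68653 CPM in FD plasma and from 29511 to 76934 CPM in HG plasma, the muscle list from 440 to 1285 and from 624 to 2139 CPM. The liver list (5 names such as miR-122, 2 of them without reads in FD plasma) ran the other way, from 10114 to 90426 CPM (median 73980) on FD and from 18020 to 42759 CPM (median 32858) on HG, higher in 1 of 4 cows. The vascular sum was higher on HG in 3 of 4 cows and the muscle sum in 2 of 4, and no name of the vascular and muscle lists was at 0 over the plasma libraries of either diet. The part of these sources in the members' levels was not tested.

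**Figure D4:**
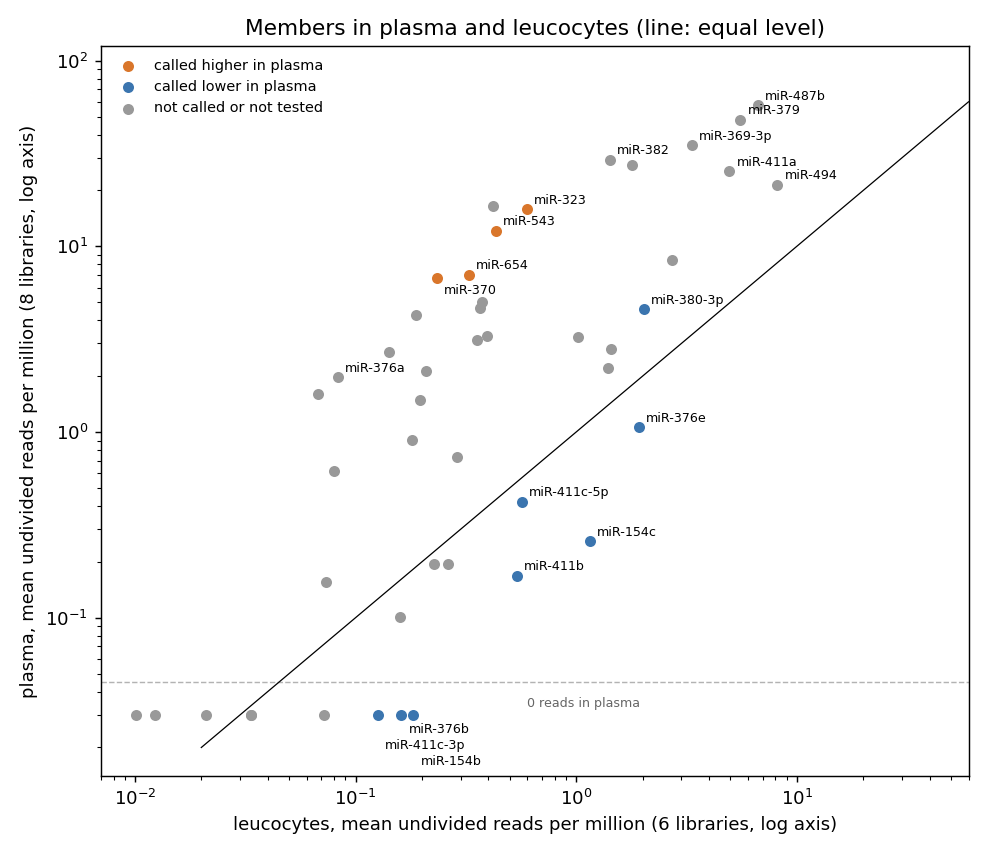
Mean undivided RPM of each member in leucocytes (horizontal, 6 libraries) and plasma (vertical, 8 libraries), both on log axes, with the 9 members without plasma reads placed below the dashed line. Orange and blue mark members called higher or lower in plasma in the 12 libraries of cows 1, 3 and 4. The leading members lie at the upper right in both, and bta-miR-376a and bta-miR-376e lie on opposite sides of the line of equal level.

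Within families of related members, the shares of the forms were compared between plasma and leucocytes without a test over libraries. Pooled shares were furthest apart in the miR-376 family, and the libraries of the miR-411 family did not overlap. The shares are taken of the family's undivided reads, so they do not depend on how libraries are scaled, but a read that matches several similar names counts at each and the split is therefore uncertain. Intervals are exact binomial 95% intervals on pooled reads and cover counting error only. bta-miR-411a gave 593 of 600 reads of the miR-411 family in plasma (98.8%, 97.6% to 99.5%) and 2117 of 2634 in leucocytes (80.4%, 78.8% to 81.9%). Its share was 88.3% to 100% in single plasma libraries and 76.3% to 87.7% in leucocyte libraries, without overlap. The plasma libraries held 10 to 333 reads of the family and the leucocyte libraries 250 to 751, and with 10 reads, in FD cow 1, the interval of the share reached down to 69.2%, below the lowest leucocyte share. In 7 of 8 plasma libraries bta-miR-411a was the only form found, and the exception was the HG library of cow 2.

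The miR-376 family, known for RNA editing in the brain, rested on few plasma reads. bta-miR-376a gave 27 of 49 reads in plasma (55.1%, 40.2% to 69.3%) and 31 of 1111 in leucocytes (2.79%, 1.90% to 3.94%). bta-miR-376e gave 20 of 49 reads in plasma (40.8%, 27.0% to 55.8%) and 888 of 1111 in leucocytes (79.9%, 77.4% to 82.2%). In single leucocyte libraries the share of bta-miR-376e was 76.5% to 93.2%, whereas in the 7 plasma libraries with reads of the family, 2 to 16 each, it ran from 0 to 100%.

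In the miR-323 family bta-miR-323b-3p gave 7.12% of 323 reads in plasma (4.57% to 10.5%) and 28.5% of 319 in leucocytes (23.6% to 33.8%), and single libraries overlapped, from 0 to 25% and from 8.57% to 44.8%. In the miR-487 family bta-miR-487a gave 1.13% of 1064 reads in plasma and 4.81% of 2826 in leucocytes, also with overlap between libraries. For the arms of the miR-369 hairpin the intervals overlapped, with bta-miR-369-5p at 3.42% of 731 reads in plasma (2.23% to 5.01%) and 4.61% of 1563 in leucocytes (3.62% to 5.77%). Of the miR-154 family only 6 plasma reads were found, all of bta-miR-154c, too few to compare with 530 of 601 in leucocytes.

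**Figure D5:**
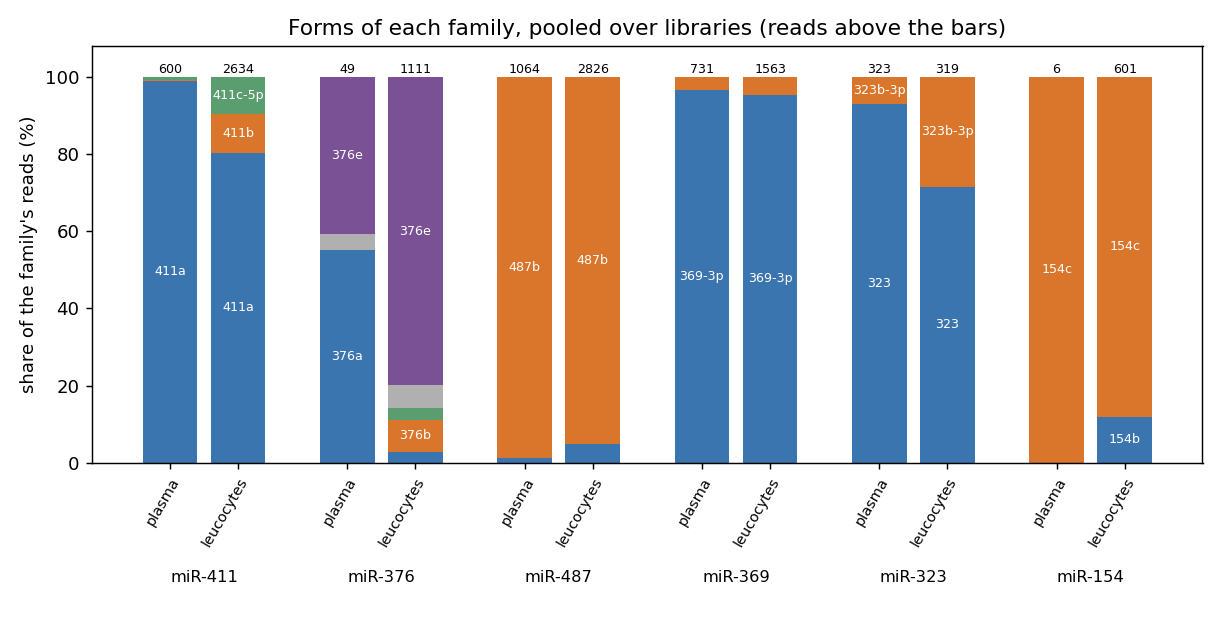
Share of the undivided reads of each family that came from each form, pooled over the 8 plasma and the 6 leucocyte libraries, with the number of family reads above each bar. bta-miR-411a takes 98.8% in plasma and 80.4% in leucocytes, bta-miR-376a takes 55.1% of 49 plasma reads and 2.79% in leucocytes, and the miR-369 arms have similar shares in both.

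Many plasma values rested on few reads or on a single read sequence, which counts sequence variants and not molecules. Of 215 pairs of a member and a plasma library with reads, 90 (41.9%) came from 1 distinct sequence and 85 (39.5%) had 5 reads or fewer. In leucocytes 39 of 252 pairs (15.5%) came from 1 sequence and 28 (11.1%) had 5 reads or fewer. Several of the plasma values that stood apart from the rest of their diet came from few sequences. The 207 reads of bta-miR-665 in FD cow 2 and the 60 in HG cow 3 each came from 1 sequence, the 155 reads of bta-miR-329a in FD cow 4 from 2, and the 103 reads of bta-miR-382 in FD cow 1 from 3. bta-miR-382 was at 176 CPM in that library, at 4.02, 1.91 and 1.10 CPM in the other FD libraries and at 2.99, 14.4, 23.3 and 2.91 CPM on HG. bta-miR-380-3p had 51.1 CPM in HG cow 2, from 39 reads of 2 sequences, and 2.52, 0 and 0.775 CPM in the other HG libraries, against 13.7, 1.79, 0 and 1.32 CPM on FD. bta-miR-655, the fourth member whose diets did not overlap, had 0, 3.57, 3.82 and 1.75 CPM on FD and 44.98, 6.55, 14.3 and 3.88 CPM on HG, where the 143 reads of cow 1 came from 3 sequences.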

How the data were processed

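Small RNA reads were trimmed, filtered and assigned to bovine and human miRNA names by the authors, per the study's methods with bcl2fastq 2.20, Skewer and sRNAbench against UMD3.1 and miRBase, allowing 2 mismatches. The deposited library files hold read counts, counts of distinct sequences, estimated counts (expected counts) and a scaled signal, of which the signal only served to check library totals. Deposited tables of scaled values were not used. Estimated counts were rounded and fitted with edgeR 4.0.16 in R 4.3.3 (robust quasi-likelihood test, TMM, names with at least 10 counts, Benjamini-Hochberg over all names), with cow, or blood draw between sample types, as a block. Alternatives were DESeq2 1.42.0, limma 3.58.1, other scalings, filters and counts, and each cow left out. The script was tested on simulated data.

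The members and lists were chosen with earlier results of these data known. Named members were those with the 6 highest means per sample type, the 5 smallest p-values per direction in each comparison and up to 5 with a plasma library apart. A few others are named where a count or a family refers to them, after their values were seen. Libraries of a group came from separate cows, so p-values of the diet tests within a sample type measure the spread between cows. In the tests with both sample types each cow entered with its FD and its HG draw. Those p-values measure the spread between draws and not between separate animals.

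Pairing by cow follows animal letters in the leucocyte titles, where deviations of a cow's 2 libraries correlated at 0.267 to 0.392. In plasma it follows the authors' numbering, and the correlations were -0.219 to 0.147. Between plasma libraries of different cows they reached 0.348 (FD cow 1 and HG cow 3), so the values do not show the plasma pairing. The counts and differences by cow in plasma rest on that numbering.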

Additional observations from a re-analysis of the deposited data

Results flagged for a closer look

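In 64 groups of 4 plasma libraries, 17 had 1 library far from the other 3. Among normal values of equal precision about 1 in 20 groups (3.2) would be flagged. Many of these values rest on few reads in libraries of unequal size, so 17 cannot be set against 3.2. In 8 of the 17 the other 3 libraries were at 0 CPM, so that any reads stand apart and this rate has no meaning. The FD library of cow 1, the smallest, held 8 of the 17: bta-miR-382 at 176 CPM, bta-miR-495 at 46.2, bta-miR-431 at 27.4, bta-miR-380-3p at 13.7, bta-miR-654 at 11.98, bta-miR-494 at 10.3, bta-miR-323b-3p at 4.55 and bta-miR-376a at 3.42 CPM. On FD, bta-miR-665 stood apart in cow 2 at 185 CPM, bta-miR-136 in cow 3 at 3.06 CPM and bta-miR-369-5p in cow 3 at 1.91 CPM. In cow 4 on FD, bta-miR-329a stood apart at 68.0 CPM and bta-miR-376e at 0.877 CPM. On HG, bta-miR-665 stood apart in cow 3 at 71.7 CPM and bta-miR-485 in cow 3 at 7.17 CPM, bta-miR-380-3p in cow 2 at 51.1 CPM, and bta-miR-329a in cow 1 at 0.629 CPM. Depth and the number of distinct sequences behind these values are given above, and their part was not tested.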

How the results depend on the processing

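Members called numbered 0 between the diets, in plasma, leucocytes and their difference, under every alternative run. All names called in plasma numbered 10 by DESeq2 and 0 with each cow left out. In leucocytes they numbered 28 by DESeq2, 9 with DESeq2 size factors, 6 with 10 counts in 3 libraries, 5 among bovine names only, and 0 to 111 with a cow left out (111 without cow 4, 9 without cow 1, 0 without cow 3). For the difference between sample types they numbered 7 by DESeq2, 1 with DESeq2 size factors, library size, no filter, undivided reads or bovine names only, and 0 to 1 with a cow left out. Between plasma and leucocytes 4 to 11 members and 303 to 312 names were called with a cow left out. Without cow 1 they numbered 4 and 308. With no replicate block (no pairing by cow) 0 leucocyte names were called in place of 14, and 0 in plasma as with it. In plasma bta-miR-665 ranged from a log2 fold change of -7.35 without cow 3 to 7.42 without cow 2.

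The mean leucocyte sums on FD and HG were 50.9 and 50.9 CPM on undivided reads, 167 and 167 without the erythrocyte list, 112 and 102 among bovine names only, 59.9 and 59.1 without the highest member, and 49.5 and 47.6 without members with a plasma library apart. Their difference turned to 0.019 CPM on undivided reads and ranged from -7.37 to 3.96 CPM with a cow left out. With at least 5 reads, 12.5 members were detected on FD and 23.2 on HG in plasma, and 36.3 on HG in leucocytes, a difference there of -4.0. With at least 10 reads the plasma numbers were 8.25 and 17.2, and the leucocyte numbers 35.0 and 31.3. With an estimated count of at least 2, 29.8 were detected on HG in plasma. At 5 RPM 9.25 and 15.5 were detected in plasma, a difference of 6.25 ± 12.5 (SD, n = 4 cows), and 3.0 and 3.0 in leucocytes. With a cow left out the leucocyte difference in detection ran from -2.0 to 1.0. The plasma difference ran from 8.0 to 10.3 members and from 72.7 to 444 CPM. Depth limits plasma most, where 3 counts reach 10.3 CPM in the smallest library.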
